A study of Mus musculus with 4 samples.

Results

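Skeletal muscle contracts through the sarcomere, in which myosin thick filaments pull on actin thin filaments that are anchored at the Z-disc. Calcium released from the sarcoplasmic reticulum binds troponin on the thin filament and lets myosin reach actin. Fast and slow fibres build the same machine from different isoforms of myosin, troponin and the calcium pump. Muscle attaches to the periosteum, the membrane that covers bone, and bone itself does not build sarcomeres.

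The genes described here are 33 genes of the sarcomere and of the mature muscle fibre, taken by name from a table of 47643 genes; all 33 were found, once each. They comprise 10 thick filament genes, 9 thin filament genes, 6 genes of the Z-disc and titin, 5 genes of calcium handling and 3 genes of energy and oxygen supply. By fibre type 14 of them are fast, 7 are slow and 12 serve both. Their levels were compared between periosteal cells of the mouse femur that carried a lineage label and cells that did not.

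The mice were double heterozygous, with an inducible Cre recombinase in the Sox9 gene (Sox9CreErt2) and a Cre-dependent TdTomato reporter at ROSA26. Tamoxifen (20 mg/mL) was injected 3 times, 100 µL each, with 48 h between injections, and femora were taken intact 2 weeks after the last one. Cells released from the shaft by liberase were sorted into TdTomato-positive cells, which had expressed Sox9 around the time of tamoxifen or descend from such cells, and TdTomato-negative cells from the same bones. Both groups therefore share genotype and treatment, the age of the mice is not stated, and RNA came from cells pooled over 9 mice (18 femora) in 2 collections, about 10000 cells per population, so that n is 2 libraries per group, named by the labels as collections 1 and 2, and p-values measure the spread between these libraries, not between mice. The label marks a history of Sox9 expression and is not restricted to 1 cell type.

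The table holds group statistics, from which the value of each of the 4 libraries was recovered. The depth implied by the values was 32.0 M and 41.6 M reads for the positive libraries, called here shallow and deep positive, and 17.0 M and 74.0 M reads for the negative libraries, called shallow and deep negative. Values for single libraries are given in that order throughout, as RPKM, that is reads scaled by the depth of the library and by the whole length of the gene on the genome, introns included. For 26 of the 33 genes each value could be tied to its library. For Myh1, Myh2, Myh4, Acta1, Tnnc2, Atp2a1 and Ckm it could not in the positive group, and for Acta1 not in the negative group either, and both readings are given where they matter. The deep negative library stood apart from the other 3 in genes of bone-surface cells as well: 4 resolved osteoblast genes summed to 64.4, 10.3, 7.49 and 0.0616 RPKM, and 4 resolved tendon genes to 88.1, 19.3, 19.9 and 0.0489 RPKM. Results that rest on it are given with and without it.

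Muscle fibre transcripts were present in 3 of the 4 libraries and close to absent from the fourth, and the sort by label did not separate them. Summed over the 26 resolved genes, the level was 125.8 and 70.5 RPKM in the positive libraries, 141 RPKM in the shallow negative library and 2.35 RPKM in the deep negative library. The shallow negative library thus held more of these transcripts than either positive library, while the deep negative library held 1.67% of the level of the shallow negative one. In bulk RNA, fewer muscle cells and less RNA per cell cannot be told apart.

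Over all genes but Acta1, the 32 genes took 0.125% of the reads of the shallow positive library (95% Wilson interval 0.124 to 0.126%), 0.0726% of the deep positive (0.0717 to 0.0734%), 0.153% of the shallow negative (0.151 to 0.155%) and 0.00238% of the deep negative one (0.00227 to 0.00249%). These intervals cover counting error only. With the other reading the positive shares were 0.113% and 0.0880%, and the shallow negative library remained the highest. Acta1 was left out of these shares because it decides them: its negative values are either 10206 and 159 reads or 4.49 and 194058 reads, and with it the deep negative share is 0.00259% or 0.265%.

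**Figure D1:**
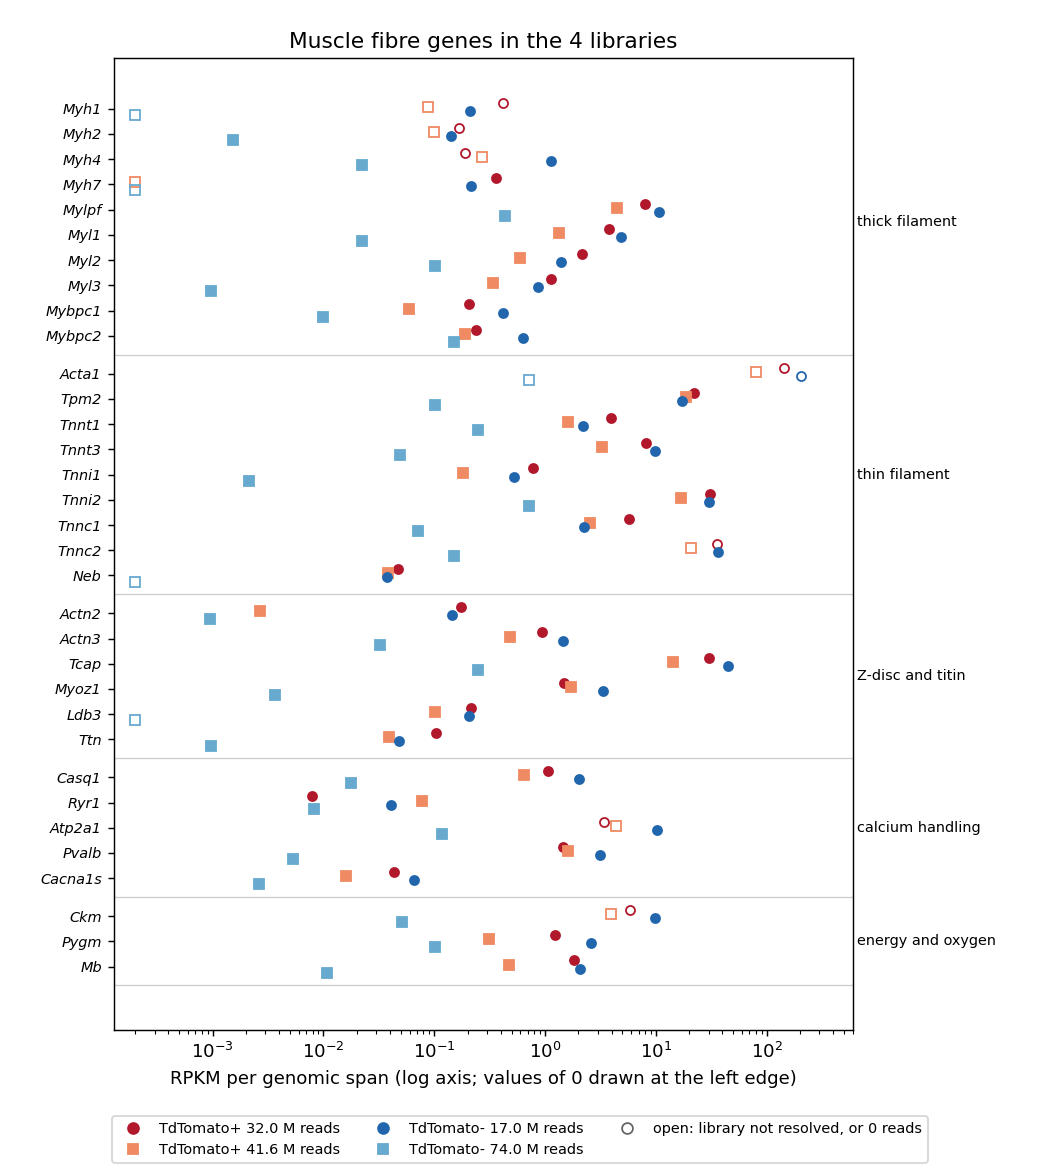
RPKM of each of the 33 genes (log axis) in the 4 libraries, grouped by role; circles are the shallow and squares the deep library of each group, red TdTomato-positive and blue TdTomato-negative, and open symbols mark values not tied to a library or 0 reads. In most rows the deep negative library lies far to the left of the other 3, and the shallow negative library lies among or to the right of the positive ones.

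The deep negative library was the lowest of the 4 in 30 of the 33 genes under every reading, against 21.4% of the 17176 genes with at least 10 reads in 2 libraries. The exceptions were Acta1, because of its open reading, Myh7, at 0 reads in both the deep positive and the deep negative library, and Ryr1, at 0.00796 RPKM in the shallow positive and 0.00821 RPKM in the deep negative library. The shallow negative library lay above both positive libraries in 16 genes, against 19.3% of the same 17176 genes, and between them in 12. The groups separated with positive cells higher in 3 genes (Tpm2, Tnnc1 and Neb), against 15.9%. None separated with negative cells higher (0 of 33, against 13.5%). The positive libraries also differed from each other: in 23 of the 26 genes resolved there the shallow positive library was the higher, with Ryr1, Myoz1 and Pvalb the other way. The share over all genes was not computed for this count. The median over the 17176 genes went the same way, at 0.556 RPKM in the shallow and 0.469 RPKM in the deep positive library.

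Of the thin filament genes, Acta1, the actin of adult skeletal muscle (ENSMUSG00000031972.4, chromosome 8, 123891767 to 123894736, mm10), had the highest level per span of all members in both positive libraries. Its positive values were 143 and 79.7 RPKM, or 61.2 and 186 RPKM with the other reading, and its negative values 202 and 0.725 RPKM, or 0.0892 and 883 RPKM. Under both readings 1 negative library lay above both positive libraries and the other lay far below them. Tnnc2, the calcium-binding troponin of fast fibres (chromosome 2, 164777161 to 164779967), was at 35.3 and 20.7 RPKM, or 15.9 and 46.0 RPKM, in positive cells and at 36.7 and 0.150 RPKM in negative cells. Tpm2, beta-tropomyosin, which lies along the actin filament (chromosome 4, 43514711 to 43523765), was at 22.0 and 18.9 RPKM in positive cells and at 17.1 and 0.101 RPKM in negative cells. Its groups did not overlap, but the shallow negative value was close to the positive ones. The mean was 20.4 ± 2.16 RPKM in positive cells and 8.62 ± 12.05 RPKM in negative cells (SD, n = 2 each), so that the spread of the negative group exceeded its mean.

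Sequences upstream of the RefSeq transcript starts of these 3 genes, the members with an unadjusted p below 0.05, are shown so that their letters can be compared. Each is the 250 bases before the RefSeq transcript start on the minus strand, read 5′ to 3′ in the direction of transcription (GRCm38.p6), with matches to 4 motifs of muscle and core promoters in capitals. The RefSeq starts differ from the ends of the gene spans printed above. The Tpm2 and Tnnc2 stretches lie mostly inside those spans, and the Acta1 stretch lies outside its span.
Acta1, chr8:123894776-123895025: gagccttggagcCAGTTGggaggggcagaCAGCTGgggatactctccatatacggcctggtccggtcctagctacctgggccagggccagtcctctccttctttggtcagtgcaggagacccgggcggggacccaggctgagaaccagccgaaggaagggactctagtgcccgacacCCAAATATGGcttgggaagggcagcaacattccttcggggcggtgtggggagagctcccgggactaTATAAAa
Tpm2, chr4:43523555-43523804: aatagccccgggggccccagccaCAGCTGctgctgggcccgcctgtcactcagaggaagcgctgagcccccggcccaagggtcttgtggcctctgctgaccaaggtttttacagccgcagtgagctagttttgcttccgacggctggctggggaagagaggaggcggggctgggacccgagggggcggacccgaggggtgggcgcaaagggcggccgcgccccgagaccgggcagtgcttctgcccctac
Tnnc2, chr2:164779735-164779984: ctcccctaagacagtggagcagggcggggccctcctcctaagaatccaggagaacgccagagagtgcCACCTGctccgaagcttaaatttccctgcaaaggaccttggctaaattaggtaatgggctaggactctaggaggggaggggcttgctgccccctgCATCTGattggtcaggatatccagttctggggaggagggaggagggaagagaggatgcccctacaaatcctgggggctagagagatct

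The motifs searched on both strands were the E-box CANNTG, bound by myogenic factors such as MyoD, the TATA box TATAAA, the CArG box of serum response factor and the MEF2 site; the E-box reads the same on both strands. All 3 sequences held an E-box, and the Acta1 sequence also held a CArG box and a TATA box. RefSeq promoters were matched for 27 of the 33 genes, with 34 promoters in all. An E-box stood in 28 of these 34 (82.4%), against 66.2% of all 32851 promoters of the same length, a TATA box in 6 (17.6% against 12.4%), a CArG box in 5 (14.7% against 1.47%) and a MEF2 site in 1 (2.94% against 0.508%). A match describes these letters and is not evidence that a factor binds there.

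In the other thin filament genes, too, the deep negative library was the lowest. Tnni2 and Tnnt3, the inhibitory and tropomyosin-binding troponins of fast fibres, were at 30.7, 17.0, 30.1 and 0.722 RPKM and at 8.12, 3.24, 9.76 and 0.0488 RPKM. The shallow negative library lay just below the higher positive one for Tnni2 and above both for Tnnt3. Among the slow troponins, Tnnt1 was at 3.93, 1.62, 2.20 and 0.251 RPKM and Tnni1 at 0.784, 0.183, 0.528 and 0.00214 RPKM. Tnnc1, the troponin C of slow fibres and heart, was at 5.68, 2.57, 2.26 and 0.0712 RPKM. Its groups did not overlap, by a narrow margin between the deep positive and shallow negative values. Neb, nebulin, the giant ruler protein of the thin filament, had 304, 319, 130 and 0 reads. Its deep positive and shallow negative levels both round to 0.0379 RPKM, so its separation by group is within counting error.

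Thick filament genes spanned a wide range of levels. On this scale the fast light chains Mylpf and Myl1 were the highest of them in the positive libraries and in the shallow negative one. Mylpf, the regulatory light chain of fast fibres, was at 8.06, 4.48, 10.8 and 0.437 RPKM. Myl1, the essential light chain of fast fibres, was at 3.77, 1.34, 4.81 and 0.0224 RPKM. Both were highest in the shallow negative library. Their slow counterparts Myl2 and Myl3 were at 2.18, 0.597, 1.41 and 0.103 RPKM and at 1.13, 0.342, 0.871 and 0.000967 RPKM, with the shallow negative library between the positive ones.

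The myosin heavy chains, the motor proteins themselves, were low. Myh4, of the fastest fibres (IIb), was at 0.189 and 0.270 RPKM, or 0.184 and 0.276 RPKM, in positive cells and at 1.13 and 0.0223 RPKM in negative cells, so that its shallow negative value lay above both positive ones. Myh1 (fibre type IIx) had 87.5 reads in the shallow negative and 0 in the deep negative library, with 326 and 90.2 reads, or 35.0 and 584 reads, in the positive ones. Myh2 (type IIa) was at 0.169 and 0.101 RPKM, or 0.0541 and 0.250 RPKM, in positive cells and at 0.142 and 0.00153 RPKM in negative cells, the last from 3 reads. Myh1, Myh2 and Myh4 are neighbouring, related genes on chromosome 11, and some of their read counts are fractional. Reads may therefore have been split between them, and their separate values are uncertain. Myh7, the slow and cardiac heavy chain, had 276, 0, 87 and 0 reads. Its level thus came from 1 library of each group. The myosin-binding proteins Mybpc1 (slow) and Mybpc2 (fast) were at 0.207, 0.0598, 0.414 and 0.00995 RPKM and at 0.240, 0.191, 0.629 and 0.151 RPKM. Mybpc2 differed least between the negative libraries of all resolved genes with more than 3 reads in the deep one, at 4.16-fold.

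At the Z-disc, Tcap, the titin cap, was at 30.1, 14.4, 44.5 and 0.248 RPKM. Its mean was 22.3 ± 11.1 RPKM in positive and 22.4 ± 31.3 RPKM in negative cells (SD, n = 2 each), a near-equal pair of means from unlike libraries. Myoz1, which binds calcineurin at the Z-disc of fast fibres, was at 1.47, 1.72, 3.35 and 0.00363 RPKM, the last from 2 reads. Actn3, the alpha-actinin of fast fibres, was at 0.938, 0.483, 1.44 and 0.0324 RPKM. All 3 were highest in the shallow negative library. Actn2, the alpha-actinin of all fibres, had 400, 8, 175 and 5 reads, so the deep positive library was low in it as well. Ldb3, a PDZ-LIM protein that binds alpha-actinin, had 428, 260, 218 and 0 reads, and Ttn, titin, the elastic filament from Z-disc to M-line, had 931, 453, 228 and 20 reads. For Ldb3 the shallow negative level was at least 317-fold higher than the deep negative one, with the limit of 3 reads that a count of 0 allows in that library.

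Calcium handling genes were highest in the shallow negative library in 4 of 5 cases. Atp2a1, the calcium pump of fast fibres, was at 3.38 and 4.39 RPKM, or 3.35 and 4.43 RPKM, in positive cells and at 10.3 and 0.119 RPKM in negative cells. Pvalb, the calcium buffer parvalbumin of fast fibres, was at 1.45, 1.63, 3.17 and 0.00530 RPKM. Casq1, the calcium store protein calsequestrin, was at 1.05, 0.651, 2.01 and 0.0176 RPKM, and Cacna1s, the voltage sensor of the T-tubule, at 0.0437, 0.0160, 0.0659 and 0.00262 RPKM. Ryr1, the release channel, went another way. It had 31, 396, 85 and 74 reads and was highest in the deep positive library.

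The 3 genes of energy and oxygen supply were also highest in the shallow negative library. Ckm, muscle creatine kinase, was at 5.85 and 3.97 RPKM, or 3.03 and 7.65 RPKM, in positive cells and at 9.88 and 0.0510 RPKM in negative cells. Pygm, muscle glycogen phosphorylase, was at 1.22, 0.313, 2.59 and 0.102 RPKM, and Mb, myoglobin, at 1.82, 0.469, 2.05 and 0.0108 RPKM.

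**Figure D2:**
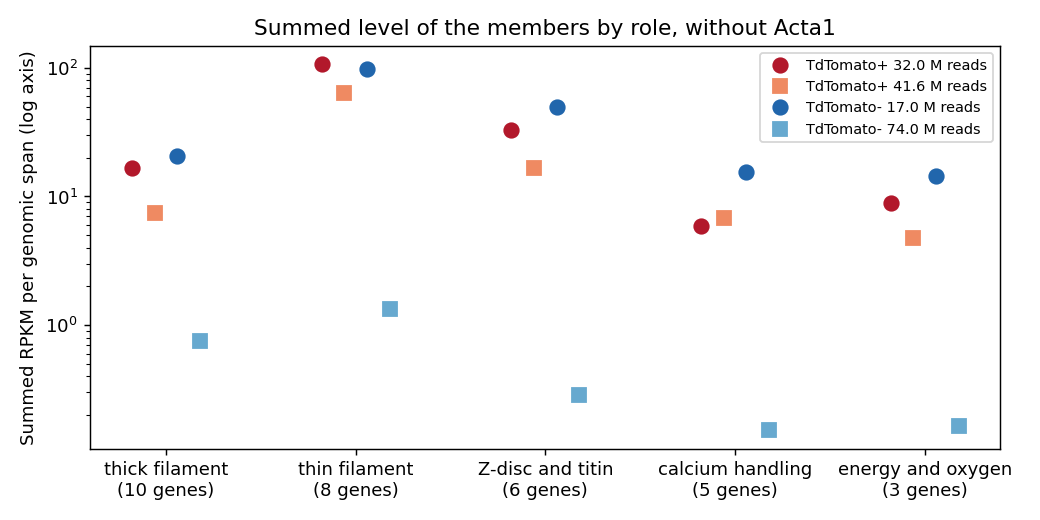
Summed RPKM of the members of each role, without Acta1 (log axis), in the 4 libraries; circles are the shallow and squares the deep library of each group, red TdTomato-positive and blue TdTomato-negative. Values not tied to a library are drawn in the reading taken. The shallow negative library has the highest sum in all roles except the thin filament, where it lies at 98.7 RPKM between 107 and 64.3 RPKM in the positive libraries (87.1 and 89.6 RPKM, both below it, with the other reading of Tnnc2), and the deep negative library has the lowest sum in all 5.

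Fast isoforms were set against the slow isoform of the same role for 6 pairs, with reads scaled by the merged exon length of each gene in GENCODE vM21 (exon RPKM). The mean log2 ratio of fast to slow was 1.54 and 2.25 in the shallow and deep positive libraries and 2.41 and 2.35 in the shallow and deep negative libraries, so fast isoforms were on average the more abundant in all 4. With the other reading of Tnnc2 the positive means were 1.35 and 2.45, on either side of both negative ones. The positive minus negative difference was -0.48, which does not depend on the length scale (exact two-sided permutation test over 2 against 2 libraries, p = 0.333, the smallest this design allows). With the other reading of Tnnc2 the difference was also -0.48, with an exact permutation p of 1.00. The design therefore cannot show whether the fast to slow balance differed between the groups.

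Single pairs differed in size and, in the deep negative library, rested on few reads. The log2 ratio of Tnni2 to Tnni1 was 2.96, 4.20, 3.50 and 6.06, the last from 139 against 5 reads. That of Tnnt3 to Tnnt1 was 2.06, 2.02, 3.17 and -1.34, the last from 62 against 219 reads. The 2 light chain pairs were at 1.55, 2.57, 2.60 and 1.76 for Mylpf to Myl2 and at 1.31, 1.54, 2.04 and 4.11 for Myl1 to Myl3, and Tnnc2 to Tnnc1 was at 2.73 and 3.10, or 1.58 and 4.26, in positive cells and at 4.12 and 1.17 in negative cells. Mybpc2 to Mybpc1 went the other way in the shallow libraries, at -1.38, 0.08, -0.99 and 2.33. The slow myosin-binding protein was thus the more abundant one in the shallow libraries. Myh4 and Myh7 made no pair, because Myh7 had 0 reads in 2 libraries. The shallow negative library lay above the mean of the positive libraries in 13 of 14 fast genes, with a median log2 difference of 0.97, and in 5 of 7 slow genes, with a median of 0.13. Fast and slow genes are not replicates of a condition, and this difference between them was not tested. The share of all genes above the positive mean was not computed. On mean log2(RPKM + 0.1), the positive libraries were above the shallow negative one in 57.5% of genes with at least 10 reads in 2 libraries.

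**Figure D3:**
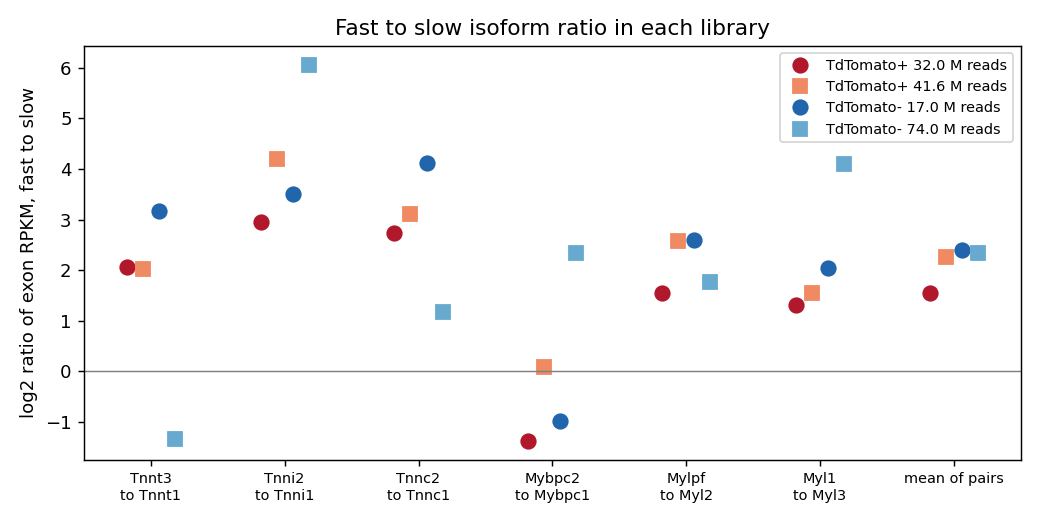
The log2 ratio of fast to slow isoform (exon RPKM) for 6 pairs and their mean, in the 4 libraries, with symbols as in the plot of single genes and Tnnc2 in the reading taken; 0 is equal levels. The means lie between 1.54 and 2.41 (1.35 and 2.45 with the other reading of Tnnc2), and the ratio falls below 0 for Tnnt3 to Tnnt1 in the deep negative library and for Mybpc2 to Mybpc1 in the shallow ones.

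On the same exon scale the members can be ranked within a library. In the shallow negative library, where only Acta1 is unresolved, Tnnc2 stood at 129 exon RPKM, Tnnt3 at 106, Ckm at 61.3, Mylpf at 54.9, Tcap at 53.6 and Tpm2 at 53.3. Acta1 stood at 391 or 0.172 there, and at 277 or 118 in the shallow and 154 or 360 in the deep positive library. After Tpm2 came the fast isoforms Tnni2 at 52.3, Atp2a1 at 51.0 and Myl1 at 48.9. Mb, counted here as serving both fibre types, followed at 48.4, and the fast Pvalb at 46.5. The slow isoforms stood lower, with Myl3 at 11.9, Tnnt1 at 11.8, Myl2 at 9.03, Tnnc1 at 7.41 and Tnni1 at 4.63 exon RPKM. The heavy chains and the giant proteins were in the lower part, with Myh4 at 4.22, Neb at 0.288, Ryr1 at 0.229 and Ttn at 0.115 exon RPKM in the same library. Mylpf, Tcap and Tpm2 lay closer to each other than any of them did to itself in the deep positive library, so their order is not firm.

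None of the 33 genes passed the authors' test. In the authors' deposited table their FDR was 1.00 throughout, while 3 of all 47643 genes (0.0063%) had an FDR below 0.05, none of them a member. Before adjustment the lognormal model of the deposited table gave 3 members a p under 0.05, Tpm2 (0.0183), Tnnc2 (0.0341) and Acta1 (0.0449), each with a higher mean log level in positive cells. Of all genes 0.598% did so in this direction and 0.296% in the other, where no member stood (0 of 33), and of genes with at least 10 reads in 2 libraries 1.58% and 0.594%. The next member, Tnnc1, had a p of 0.0730. The limma fit on log2(RPKM + 1) tested 18 of the 33 genes, those with at least 1 RPKM in 2 libraries, among 6860 genes. It called 0 of the 18 and 0 of all genes (0.0% in either direction), with adjusted p from 0.465 for Tnnc1 to 0.967 for Casq1. At an unadjusted p below 0.05 it held 0 of the 18 members, against 7.07% of genes higher and 3.88% lower. Acta1 had a limma log2 difference of 2.53 with a standard error of 2.26, and Tpm2 of 2.26 with 1.34.

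The direction of the group difference depended on how the same 4 values were averaged. The difference of mean log2(RPKM + 0.1) was above 0, that is higher in positive cells, in 29 of 33 genes, with a median of 1.10, against 53.9% and a median of 0.06 over genes with at least 10 reads in 2 libraries. The ratio of the group means in the authors' deposited table was below 1, that is lower in positive cells, in 29 of 33 genes, with a median log2 ratio of -0.62, against 64.1% and a median of -0.26. In 25 of the 33 genes the 2 summaries pointed in opposite directions, all with a ratio below 1 and a higher mean log, against 18.8% of the 17176 genes. For Acta1 the first was 3.05 and the second -0.90. For Tnnc2 they were 3.16 and -0.43, and for Tcap 2.41 and -1.02. In the negative group the mean of logs is pulled down by the near-zero values of the deep library, and the arithmetic mean is set by the shallow one. For Acta1 this holds in the reading taken. Its other reading, 0.0892 and 883 RPKM in the shallow and deep negative libraries, swaps their parts.

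The deposited means also weight the libraries unequally. Their values are divided by depth once more than RPKM, which gives the shallow negative library 4.36 times the weight of the deep negative one. Multiplied by the gene span, the deposited means of Acta1 were 3199 in positive and 5971 in negative cells, those of Tcap 647 and 1315, those of Tnnc2 804 and 1086, those of Tpm2 574 and 509 and those of Tnnc1 123 and 70.6 on that scale. Tpm2, Tnnt1, Tnnc1 and Myh1 were the 4 members with a ratio above 1. With group means of RPKM + 0.1, which removes the extra weight, positive cells had the higher mean in 21 of the 33 genes, against 54.1% of genes with at least 10 reads in 2 libraries, and the median log2 ratio was 0.16.

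**Figure D4:**
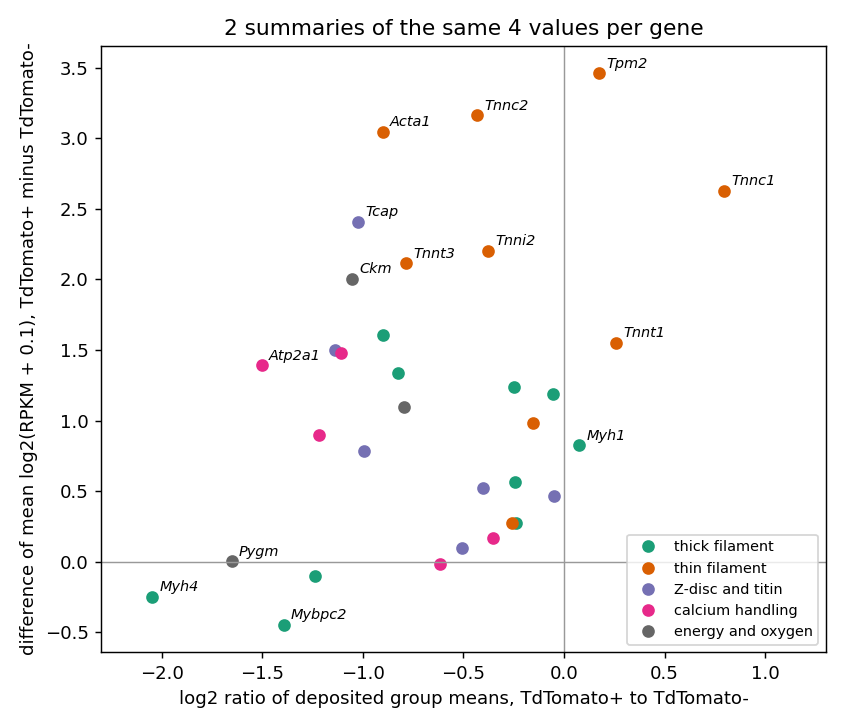
For each of the 33 genes, the log2 ratio of the deposited group means (x axis) against the difference of mean log2(RPKM + 0.1) (y axis), both TdTomato-positive relative to TdTomato-negative, coloured by role. Most points, 25 of 33, lie above and left of the zero lines, where the 2 summaries of the same libraries differ in sign.

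Leaving out a negative library moved the direction. Without the deep negative library, 6 of the 33 genes had a higher mean log2(RPKM + 0.1) in positive cells and 27 a lower one, against 57.5% higher of genes with at least 10 reads in 2 libraries, with a median of -0.55. Without the shallow negative library the difference was above 0 in all 33, against 49.4%, with a median of 2.87. With the other reading of Acta1 these counts were 7 higher and 26 lower, and 32 of 33. For Acta1 itself the difference was -0.92 without the deep negative and 7.02 without the shallow negative library, and it turned to 9.14 and -3.05 with its other negative reading, so no direction can be given for it. For Tnnc2 the values were -0.44 and 6.76 under either reading. Tpm2 and Tnnc1 stayed above 0 without the deep negative library, at 0.25 and 0.74. In limma without the shallow negative library, 12 of 18 members had an unadjusted p below 0.05, all higher, against 6.69% of genes, with a lowest adjusted p of 0.354. The spread in each of these fits comes from the positive pair alone, and the lone negative library is assumed to vary like it, so only effect sizes are given.

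Marker genes of other cells moved between the libraries in different ways. Of 16 genes of satellite cells and myogenic regulation, the sum was 32.3, 34.1, 24.7 and 1.54 RPKM, lowest in the same library as the fibre genes. The deep negative library was the lowest in 11 of the 16 under every reading, against 21.4% of the 17176 genes. Positive cells separated as higher in 2 genes and as lower in 1, against 15.9% and 13.5%. The difference of mean log2(RPKM + 0.1) was above 0 in 11 and below 0 in 5, against 53.9% above 0. As shares of reads the list held 0.0355, 0.0281, 0.0345 and 0.0110%, a smaller drop than in summed RPKM. Myod1, the myogenic transcription factor, was at 13.9, 22.5, 4.68 and 0 RPKM so that its groups did not overlap, with a p of 0.00145 and an FDR of 1.00 in the authors' deposited table. Myog, which drives terminal differentiation, was at 3.62, 1.27, 3.04 and 0.190 RPKM, and Des, the muscle intermediate filament desmin, at 7.88, 6.18, 9.82 and 0.0328 RPKM. Des was highest in the shallow negative library, like the summed fibre genes, and Myog in the shallow positive one. Dag1, the widely expressed dystroglycan, had 1810 and 1429 reads in the negative libraries, at 1.80 and 0.325 RPKM. Of 12 cardiac markers the sum was 3.04, 2.24, 0.967 and 0.668 RPKM. Nppa and Nkx2-5 had 0 reads in all 4 libraries and Myh6 had 4 reads, all in the deep negative one. Tnni3, the cardiac troponin I, had 173, 201, 4 and 28 reads and so was mainly in positive cells, and Actc1, which developing and regenerating skeletal muscle also expresses, had 366, 316, 78 and 1 reads. Myl4 and Pln, the atrial light chain and phospholamban, had 1056 and 134 reads in the deep negative library, the highest level of the 4 for both. Resolved smooth muscle and pericyte genes (10) summed to 24.2, 22.5, 13.3 and 1.25 RPKM, and among them Myl9, a light chain of smooth and non-muscle cells, had a p of 0.00485 and an FDR of 1.00 in the authors' deposited table.

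The resolved genes of the bone-surface lists were low in the deep negative library too, but the shallow negative library ranked differently in them. Relative to the shallow positive library it held 112% of the summed level of the resolved muscle fibre genes, 22.6% of that of 4 tendon genes, 11.6% of 4 osteoblast genes and 4.60% of 8 chondrocyte genes. Relative to the deep positive library these shares were 200%, 103%, 72.9% and 31.7%, so that the tendon genes were level there. Of the resolved osteoblast sum of 64.4 RPKM in the shallow positive library, Ibsp alone gave 58.1. Over all 10 osteoblast genes the shallow and deep negative sums were 456 and 1.76 RPKM in the reading taken. With the other reading they were 348 and 473 RPKM, in the reverse order. Blood lists did not share the drop in the deep negative library: 5 resolved neutrophil genes summed to 862, 4956, 3223 and 7888 RPKM and 4 resolved erythroid genes to 3.23, 19.6, 13.4 and 93.5 RPKM. The erythroid genes without a resolved library include the haemoglobins. Over all 9 genes the sums were 28855, 10750, 37737 and 37397 RPKM in the reading taken. That reading is chosen so that the libraries of a group differ less, so the level negative values follow from the choice. With the other reading the sums were 8244, 37586, 10629 and 155577 RPKM. These sums describe the libraries, and their part in the muscle result was not tested.

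**Figure D5:**
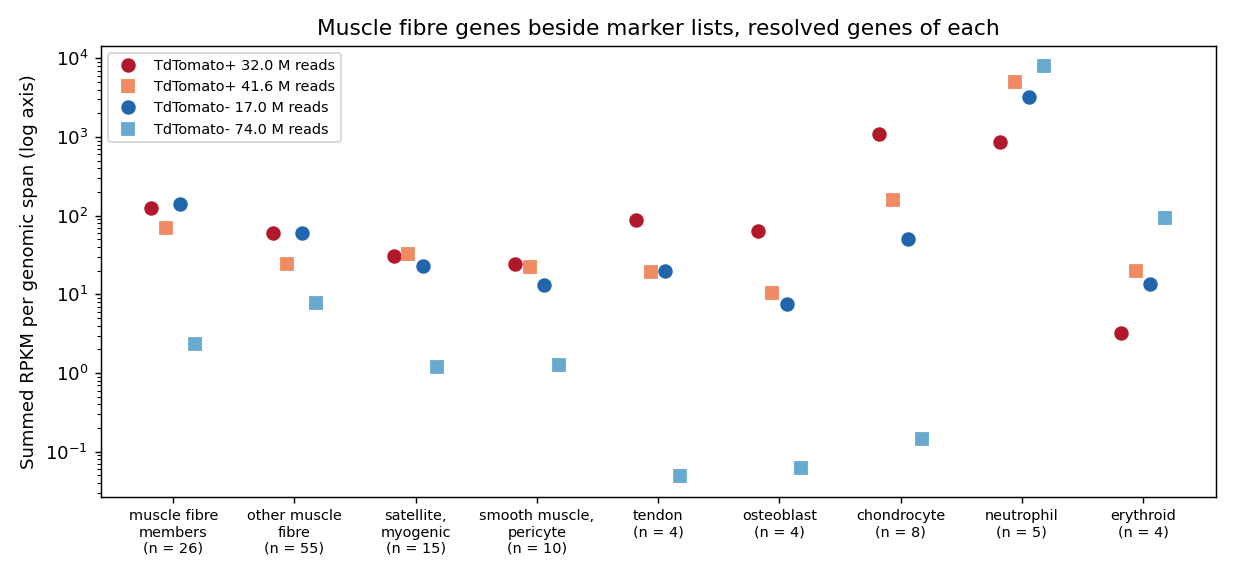
Summed RPKM (log axis) of the 26 resolved muscle fibre genes and of the resolved genes of 8 marker lists in the 4 libraries, with symbols as in the plot of single genes. The deep negative library (light blue squares) has the lowest sum in the muscle, tendon, osteoblast and chondrocyte lists and the highest in the blood lists, and the shallow negative library (dark blue circles) lies above both positive libraries in the muscle fibre members but below the shallow positive one in the tendon, osteoblast and chondrocyte lists.

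Of 60 further genes of the muscle fibre, 0 had an FDR below 0.05 and 0 an unadjusted p below 0.05 in the authors' deposited table, and limma called 0 of the 9 that it tested. The difference of mean log2(RPKM + 0.1) was above 0 in 40 and below 0 in 19, with a median of 0.29. Over genes with at least 10 reads in 2 libraries it was above 0 in 53.9%, with a median of 0.06. As for the members, the ratio of the deposited group means went the other way, above 1 in 16 and below 1 in 44, with a median log2 ratio of -0.41. Over the same background genes it was below 1 in 64.1%, with a median of -0.26. The 2 summaries differed in sign in 24 genes, each with a ratio below 1 and a higher mean log, against 18.8%. The deep negative library was the lowest of the 4 in 34 of the 60 under every reading, against 21.4% of the background genes. Of the 4 with the highest mean level, Cox6a2, the cytochrome oxidase subunit of striated muscle, was the one resolved in both groups. It was at 15.7, 6.99, 14.8 and 5.70 RPKM, so that its deep negative level, from 402 reads, was close to the deep positive one. Tpm1, a tropomyosin of striated and other muscle, was at 16.1 and 10.1 RPKM in positive cells. Its negative values could not be tied to their libraries, like those of Tpm3, which non-muscle cells also make, and Hspb6, a small heat shock protein of muscle.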

How the data were processed

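Libraries were made from total RNA of sorted cells with a SMARTer low-input kit and read as 75-nucleotide pairs, per the labels' protocols. STAR, Partek and the mm10 build were used, per the submitters' processing notes, with versions not given in the sources used here. For each gene the deposited table holds, per the file headers, 2 group means of a normalized signal, their ratio, a fold change with a sign (a score), and p-values with an FDR by the step-up method, from a lognormal fit with shrinkage. It also holds the highest value and the totals over libraries, headed as reads but fractional. All library values were solved from these columns. The model estimate is a difference of natural log means, from the deposited values.

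These statistics give exactly 1 set of 4 library values for each of the 47643 genes. The solved values were RPKM plus 0.1, scaled by depth and span a second time; this scale, the offset and the depths (32.0, 41.6, 17.0 and 74.0 M reads) were inferred. The authors' Akaike score, not used in the solution, ranged from -88.7 to 73.3, and from 24.5 to 25.8 once 2 times the summed log of the solved values was removed. A value was tied to the library that gave whole reads (within 0.01 plus 1e-05 of the reads, at most 0.05), to the only assignment without negative reads, or by 1 whole value (within 0.002). Of 17176 genes with 10 reads in 2 libraries 12098 (70.4%) were resolved; for the others the assignment whose libraries differ less was taken and the other kept as an alternative. The method was tested on simulated data.

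The p-value and FDR that the authors deposited (threshold 0.05) were the main test. Alternatives were limma 3.58.1 in R 4.3.3 on log2(RPKM + 1) with Benjamini-Hochberg adjustment, over genes with at least 1 RPKM in 2 libraries, and the means, offsets and left-out libraries named in the closing section. Of 18 myogenic genes listed 16 were in the table, and of 10 erythroid genes 9. The members and lists were chosen with earlier results of these data known. The text names all members and, of the further fibre, myogenic and cardiac lists, genes below an unadjusted p of 0.05 or otherwise those among the 4 of highest mean level, beside defining markers; the other lists are given as sums, with Myl9 added after its values were seen. File positions end 1 base past the gene, and the last base is printed. Copies of a gene and overlapping genes can share reads, and strand use in counting is not given in the sources used here.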

Additional observations from a re-analysis of the deposited data

How the results depend on the processing

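Under every alternative with 2 libraries per group, 0 of the members tested passed. These were the authors' p adjusted over genes with 10 reads in 2 libraries, and limma on log2(RPKM + 1) or log2(RPKM + 0.1). Limma was also run without a filter, with the other assignment of unresolved genes and on resolved genes alone. It called 0 of all genes in each fit (6860, 6860, 26618, 7074 and 3631 genes), so the 0 for members does not set them apart. For the authors' p adjusted anew, the share over all genes was not computed. The 60 further fibre genes also gave 0 calls. The median log2 fold of the 33 genes was -0.62 with the deposited group means and reversed to 0.065 with group means of RPKM + 1, 0.16 with RPKM + 0.1, 0.21 with no offset under either assignment and 1.10 with the mean of logs. With single libraries left out on the scale of the deposited means it ranged from -1.498, without the shallow positive library, to 4.09, without the shallow negative one; a group of 1 library then also carries its depth. With group means of RPKM + 0.1, which gave 0.16 over all 4 libraries, it was -0.39 without the deep negative, 3.02 without the shallow negative, -0.29 without the shallow positive and 0.62 without the deep positive library. The mean of logs without the deep negative library gave -0.55. The fast to slow difference of -0.48 was -0.73 with the median over pairs and ranged from -0.84 to -0.12 with single libraries left out, in the reading taken. With the other reading of Tnnc2 the deep positive mean on the exon scale (2.45) lay above both negative ones (2.41 and 2.35). The sign of the difference then turns without the shallow positive library. The assignment alternatives, group means of RPKM + 0.1 with and without single libraries, and the single-gene averages were chosen after seeing the data. No paired analysis was possible because the recovered values carry no collection number. The 12 members below 1 RPKM in all libraries, and values under 3 reads, are limited by depth, and the offset holds their folds near 0.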
